A study of Mus musculus with 6 samples.

Results

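Expression of 8 genes of steroid hormone signalling was compared between the hearts of SRAKO mice and wild-type (WT) mice. They are the receptors Nr3c1, Nr3c2, Esr1, Esr2 and Pgr, the corticosteroid-activating enzyme Hsd11b1, and the receptor chaperones Fkbp4 and Ptges3. They were picked by symbol, with earlier results of these hearts known: 8 of the 25901 rows of the deposited table carry these symbols, 1 row each. Whole-heart RNA of 3 SRAKO hearts (SRAKO2365, SRAKO2371, SRAKO2372) and 3 WT hearts (WT2368, WT2378, WT2379) was sequenced after poly(A) selection. Mice of both genotypes received the beta-adrenergic agonist isoproterenol for 4 weeks, which enlarges the heart, and untreated hearts were not analysed here. The series concerns SRA, the steroid receptor RNA activator encoded by Sra1, and SRAKO was read as its knockout, since the labels do not spell the name out. The part of the gene removed, the cells affected, and the strain, sex and age of the mice are not given in the sources used here. The title numbers differ for each heart, but litters and days of preparation are not given, so p-values measure only the spread between these samples, which may be partly technical.

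Steroid receptors are ligand-activated transcription factors. In the absence of hormone they are held ready for ligand by HSP90 with co-chaperones such as p23 and the immunophilins, and after binding hormone they act at response elements in DNA. SRA was first described as an RNA that raises the activity of such receptors. In heart muscle, glucocorticoids and aldosterone act through the glucocorticoid receptor (Nr3c1) and the mineralocorticoid receptor (Nr3c2), both of which bind corticosterone, and oestrogens act through Esr1 and Esr2.

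The targeted gene was checked first. Sra1 stood at 1.96, 1.78 and 2.05 FPKM in SRAKO2365, SRAKO2371 and SRAKO2372, and at 4.40, 4.23 and 6.31 FPKM in WT2368, WT2378 and WT2379. Each SRAKO heart lay below each WT heart, and the SRAKO mean was 38.8% of the WT mean, but the difference did not pass adjustment (limma, adjusted p = 0.258). By the GENCODE annotation the row joins 5 Sra1 transcripts with 1 of Apbb3, so the signal left in SRAKO hearts cannot be assigned to Sra1. FPKM is read coverage per kilobase of transcript, scaled to library size, which allows levels of different genes to be set side by side.

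The summed FPKM of 7 ventricular cardiomyocyte markers ran from 10609 to 10674 in SRAKO hearts and from 9779 to 11910 in WT hearts, and that of 6 lymphocyte markers was at most 1.11 in SRAKO hearts and 1.27 in WT hearts. Atrial content varied: the summed FPKM of 6 atrial markers ran from 2980 to 3511 in SRAKO hearts. In WT hearts it was 2485 in WT2368, below each SRAKO heart, 3747 in WT2378 and 8442 in WT2379. By genotype means 6 of 6 were lower in SRAKO, where 53.5% of all tested rows were higher, and WT2368 was lowest in 4 of the 6. The part of atrial content in the results was not tested. SRAKO2371 and WT2368 stood apart in RNAs that carry no poly(A) tail: the small nuclear RNA 7SK (Rn7sk) was at 114 FPKM in SRAKO2371 and 242 FPKM in WT2368, against 2.12 and 15.1 FPKM in the other SRAKO hearts and 5.34 and 14.6 FPKM in the other WT hearts. WT2368 was also the shallowest library. The commonest low coverage value, FPKM multiplied by transcript length in bases, was 43.4 to 52.3 in SRAKO hearts and 48.3 to 68.5 in WT hearts, and depth is the inverse of that value. By this measure the depth of WT2368 was 0.633 times that of SRAKO2372, the deepest. In bulk tissue, fewer cells of a type and less RNA per cell cannot be told apart.

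Levels of the 8 genes spread over the whole range of the table. Fkbp4 averaged 75.7 FPKM over the 6 hearts and stood above 98.7% of all rows, and Ptges3 averaged 10.3 FPKM and stood above 90.9%. Hsd11b1 followed at 2.87 FPKM, Nr3c1 at 2.20 FPKM and Nr3c2 at 1.35 FPKM. Esr1 at 0.0448 FPKM, Esr2 at 0.0359 FPKM and Pgr at 0.00354 FPKM lay in the weakest rows. The ranges of Fkbp4 (63.2 to 87.2 FPKM) and Ptges3 (9.56 to 11.7 FPKM) did not overlap each other or those of the other 6 genes. Hsd11b1 (2.20 to 3.33 FPKM) and Nr3c1 (0.147 to 3.64 FPKM) overlapped, as did Nr3c1 and Nr3c2 (1.10 to 1.57 FPKM), and Esr1 and Esr2. The chaperones were listed far above the 5 receptors.

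**Figure D1:**
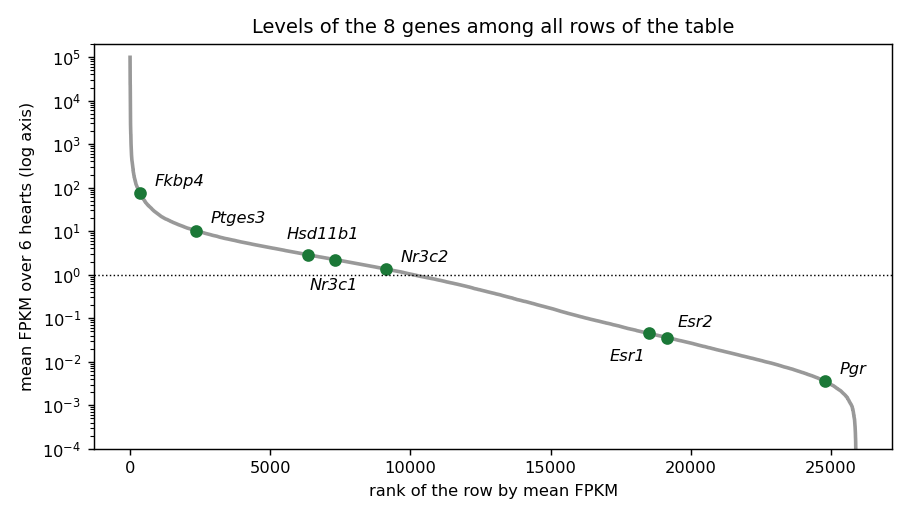
Mean FPKM over 6 hearts (log axis) of all rows above 0 (grey line), ordered from highest to lowest, with the 8 genes as points; the dotted line marks 1 FPKM. Fkbp4 and Ptges3 lie at 75.7 and 10.3 FPKM, Hsd11b1, Nr3c1 and Nr3c2 between 1.35 and 2.87 FPKM, and Esr1, Esr2 and Pgr below 0.05 FPKM.

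Promoters are shown for both chaperones, for the steadily detected receptor Nr3c2, and for Pgr, the least detected of the 8. RefSeq promoter windows on GRCm38.p6, 250 bases before to 50 after a gene's start, were found for 7 of the 8 genes and not for Nr3c1. The Nr3c2 window lies inside the GENCODE span of that gene, which begins further upstream, at base 76899442. The bases of each window outside annotated exons are printed on the gene's own strand, 5′ to 3′. Capitals mark 3 kinds of motif: the heat shock element core (GAANNTTC or TTCNNGAA), the CCAAT box (CCAAT or ATTGG) and the GC box (GGGCGG or CCGCCC), in either orientation.
Fkbp4, minus strand, chr6:128438678-128438756: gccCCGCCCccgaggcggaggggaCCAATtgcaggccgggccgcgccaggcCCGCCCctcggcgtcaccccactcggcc
Ptges3, plus strand, chr10:128058732-128058953: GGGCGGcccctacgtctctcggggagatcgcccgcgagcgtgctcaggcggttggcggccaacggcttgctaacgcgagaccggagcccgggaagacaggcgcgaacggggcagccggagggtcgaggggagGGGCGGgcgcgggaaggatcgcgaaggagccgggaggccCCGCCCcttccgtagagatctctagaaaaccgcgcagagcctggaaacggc
Nr3c2, plus strand, chr8:76902080-76902287: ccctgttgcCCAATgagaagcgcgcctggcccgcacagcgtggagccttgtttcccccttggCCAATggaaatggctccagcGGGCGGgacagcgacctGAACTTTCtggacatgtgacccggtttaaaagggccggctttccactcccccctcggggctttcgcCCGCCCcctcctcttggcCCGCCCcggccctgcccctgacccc
Pgr, plus strand, chr9:8899583-8899832: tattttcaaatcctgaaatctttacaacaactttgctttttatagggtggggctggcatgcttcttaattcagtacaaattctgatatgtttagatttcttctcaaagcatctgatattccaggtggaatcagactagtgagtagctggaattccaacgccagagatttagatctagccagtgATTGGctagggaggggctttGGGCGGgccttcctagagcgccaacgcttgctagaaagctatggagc
The 79 bases of Fkbp4 are the gap to a neighbouring gene on the other strand. GC content over the full window of 300 bases was 73.7% for Ptges3, 65.7% for Nr3c2, 65.3% for Fkbp4 and 43.7% for Pgr. A GC box stood in 4 of the 8 windows of these genes, those of Fkbp4, Ptges3, Nr3c2 and Pgr, and in 35.7% of all 32851 promoter windows. A CCAAT box stood in 6 of the 8 windows and in 37.4% of all windows. A heat shock element core stood in 2 of the 8 windows of these genes, those of Fkbp4 (outside the bases printed) and Nr3c2, and in 15.1% of all windows. The glucocorticoid response half-site (AGAACA or TGTTCT) was in 0 of the 8 windows and in 19.0% of all windows. These are matches of letters in a short window and say nothing on binding.

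For the comparison of SRAKO with WT hearts, log2(FPKM + 1) was tested with limma over the 10201 rows that had at least 1 FPKM in at least 3 hearts. Of the 8 genes, 5 passed that filter (Nr3c1, Nr3c2, Hsd11b1, Fkbp4 and Ptges3), and 3 (Esr1, Esr2 and Pgr) did not and were not tested. The test called 0 of the 5 after Benjamini-Hochberg adjustment over all rows (adjusted p = 0.999 for each), where 0.0196% of all rows were called. At an unadjusted p under 0.05 there were 0 of the 5, against 3.46% of all rows (1.9% higher and 1.56% lower in SRAKO hearts), and the smallest unadjusted p of limma was 0.323, for Nr3c2. In 0 of the 5 did the genotypes fail to overlap, against 8.05% of all rows (4.28% higher and 3.76% lower in SRAKO hearts). The differences, SRAKO minus WT, were below 0 for 4 genes and above 0 for 1, with a median of -0.06 against 0.01 over all rows.

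**Figure D2:**
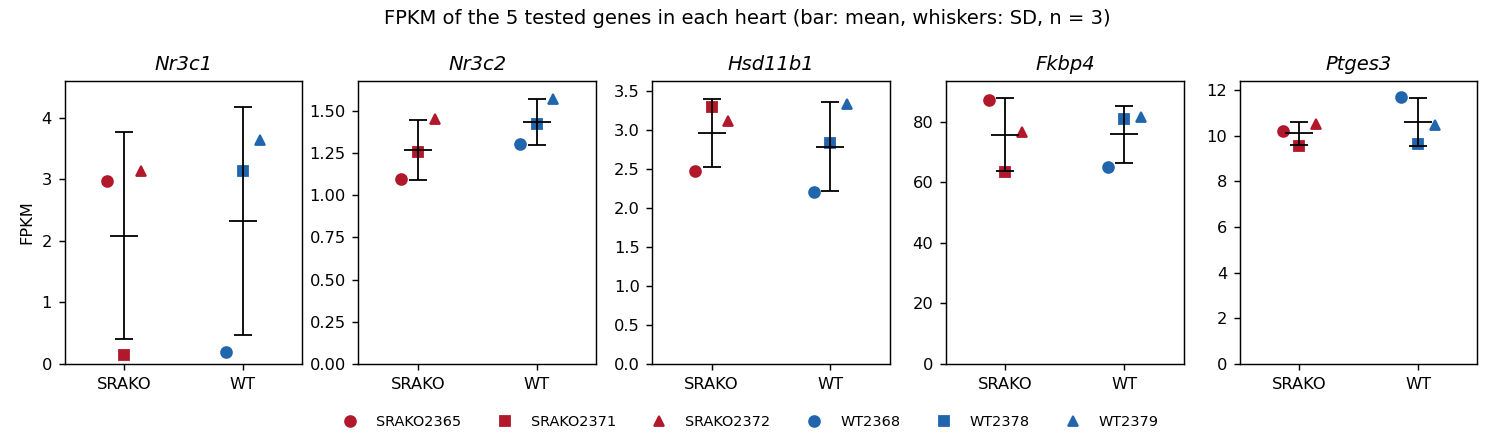
FPKM in each heart (points, 1 symbol per heart) for the 5 tested genes, SRAKO on the left and WT on the right of each panel, with the mean (bar) and SD (whiskers), n = 3 each. The genotypes overlap in every panel, and Nr3c1 is near 0 in SRAKO2371 and WT2368, at 0.147 and 0.198 FPKM.

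Nr3c1, the glucocorticoid receptor, differed far more between hearts of the same genotype than between genotypes. It was at 2.97, 0.147 and 3.14 FPKM in SRAKO2365, SRAKO2371 and SRAKO2372, and at 0.198, 3.13 and 3.64 FPKM in WT2368, WT2378 and WT2379. One heart of each genotype was thus listed near 0, and the other SRAKO and WT hearts stood close together. Means were 2.09 ± 1.68 FPKM in SRAKO and 2.32 ± 1.86 FPKM in WT hearts (SD, n = 3 each). The log2 difference was -0.10, with a 95% interval from -1.56 to 1.37, wide enough to hold a change of over 1 log2 unit either way. Without SRAKO2371 the difference was 0.51, without WT2368 it was -0.72, and it also turned positive without WT2378 (0.17) or WT2379 (0.26). Without both SRAKO2371 and WT2368 it was -0.11.

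Both low values fell in the libraries with the most 7SK RNA, at 114 FPKM in SRAKO2371 and 242 FPKM in WT2368. Nr3c1 was listed 15.0-fold lower in WT2368, the higher of both, than in SRAKO2365, the next heart. Gaps that wide are uncommon: 36 of the 10201 tested rows, 0.353%, had a gap of at least 10-fold between neighbouring hearts when hearts were put in order of level. Nr3c1 was the single tested row in which SRAKO2371 and WT2368 both lay at least 5-fold below each of the other hearts. Both hearts were picked from the values of Nr3c1 itself, so its own place in that count was fixed beforehand. Its row joins 4 of 9 annotated Nr3c1 transcripts. The part that library makeup or transcript assignment had in the low values was not tested. On GRCm38, Nr3c1 occupies bases 39410545 to 39519421 of chromosome 18 (minus strand), 2.74 Mb from Sra1.

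The rows with the pattern closest to Nr3c1 over the 6 hearts were Cap1, Pgap3 and Tmem50a, with root-mean-square differences of 0.08, 0.13 and 0.14 after each gene was centred and scaled to its SD. Their amplitude was far smaller. Cap1, for example, was at 14.4, 7.40 and 14.6 FPKM in SRAKO2365, SRAKO2371 and SRAKO2372, and at 6.88, 14.2 and 15.6 FPKM in WT2368, WT2378 and WT2379.

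Transcripts that corticosteroids are known to induce did not follow the levels of Nr3c1 heart by heart. Over 16 such genes, the median of log2(FPKM + 1) relative to the WT mean was 0.28 in SRAKO2371 and -0.27 in WT2368, the hearts with the lowest Nr3c1. It was 0.09 and 0.41 in SRAKO2365 and SRAKO2372, and 0.16 and 0.19 in WT2378 and WT2379. So the hearts listed with almost no Nr3c1 lay on opposite sides of the WT mean. That mean includes WT2368 itself, and every heart except WT2368 lay above it. By genotype, 14 of the 16 were higher and 2 lower in SRAKO hearts, where 53.5% of all tested rows were higher. The median difference was 0.23 against 0.01 over all rows, and 0 passed adjustment. This excess was known from earlier results on these hearts, and WT2368, which held the lowest value of 44.9% of all tested rows, was lowest in 7 of the 16. The genes given next were picked by small p, and the 2 lower genes are not among them. Ptgds, a prostaglandin D synthase induced by glucocorticoids in cardiomyocytes, was at 72.0 ± 15.8 FPKM in SRAKO and 48.8 ± 5.20 FPKM in WT hearts, with a log2 difference of 0.54 (limma, unadjusted p = 0.0128, adjusted p = 0.999). The metallothionein Mt1 was at 186 ± 7.47 FPKM in SRAKO and 159 ± 11.2 FPKM in WT hearts. Lcn2, which neutrophils also make, was at 2.63 ± 1.301 FPKM in SRAKO and 1.43 ± 0.327 FPKM in WT hearts. The summed FPKM of 6 neutrophil markers ran from 3.30 to 53.4 in SRAKO hearts and from 1.28 to 10.7 in WT hearts, and its part in Lcn2 was not tested. The median of the 16 genes was 0.11 without WT2368 and 0.41 without SRAKO2365.

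**Figure D3:**
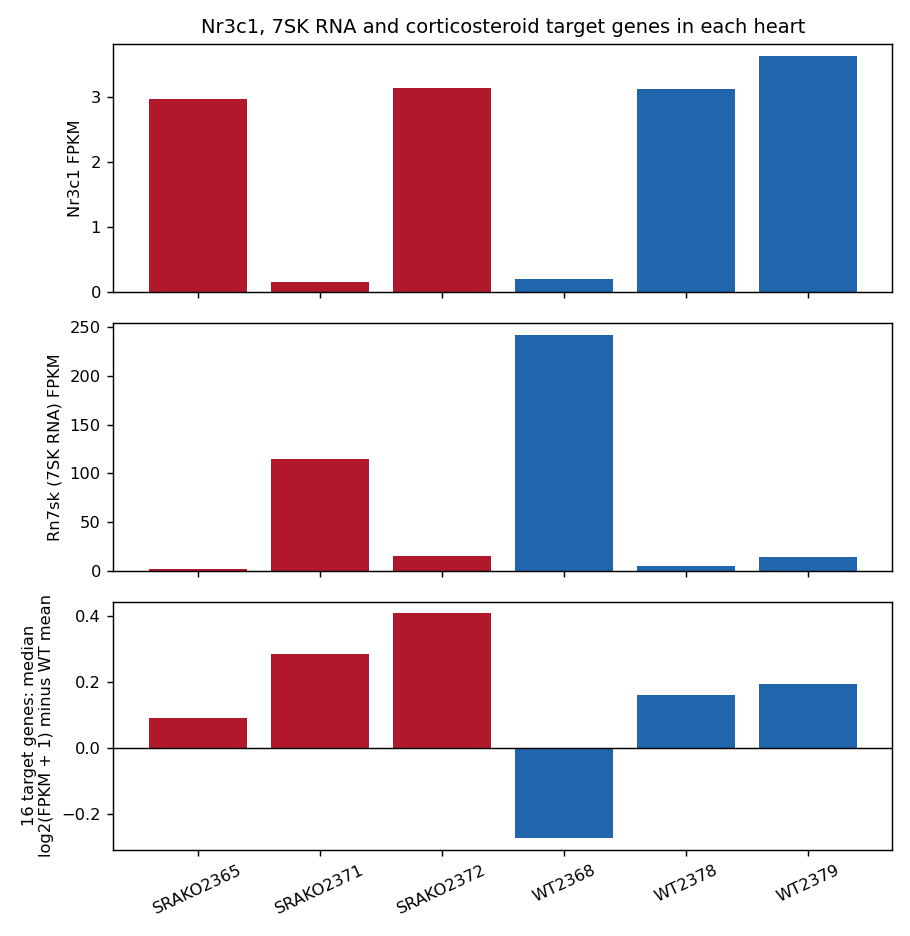
Values in each heart, SRAKO (red) left of WT (blue): Nr3c1 FPKM (top), 7SK RNA (Rn7sk) FPKM (middle), and the median over 16 corticosteroid target genes of log2(FPKM + 1) minus the WT mean (bottom). Nr3c1 is lowest where 7SK is highest, in SRAKO2371 and WT2368, and the target genes stand at 0.28 and -0.27 in those hearts.

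Nr3c2, the mineralocorticoid receptor, which binds aldosterone as well as glucocorticoids, was steady. Its row holds 6 of 8 annotated transcripts. Nr3c2 occupies bases 76899442 to 77245012 of chromosome 8 (plus strand), and the gene Gm10649 on the other strand shares bases with it. It was at 1.10, 1.26 and 1.45 FPKM in SRAKO2365, SRAKO2371 and SRAKO2372, and at 1.301, 1.42 and 1.57 FPKM in WT2368, WT2378 and WT2379. The WT hearts lay somewhat higher and the genotypes overlapped. Means were 1.27 ± 0.178 FPKM in SRAKO and 1.43 ± 0.136 FPKM in WT hearts (SD, n = 3 each), which differ by -0.10 on the log2 scale (SE 0.10), with a 95% interval from -0.32 to 0.12. SRAKO2371 and WT2368, where Nr3c1 was near 0, held the middle value of the SRAKO hearts and the lowest of the WT hearts.

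In the hearts where Nr3c1 was detected well, it exceeded Nr3c2. The ratio of Nr3c1 to Nr3c2 FPKM was 2.71 in SRAKO2365 and 2.16 in SRAKO2372, and 2.20 in WT2378 and 2.31 in WT2379. It was 0.117 in SRAKO2371 and 0.152 in WT2368. The mean log2 ratio was -0.18 ± 2.53 in SRAKO and -0.12 ± 2.25 in WT hearts (SD, n = 3 each; exact two-sided permutation test, p = 0.8, where the smallest possible is 0.1). Without SRAKO2371 and WT2368 the difference of -0.06 became 0.10.

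Receptors for sex steroids were barely detected. Esr1, the oestrogen receptor alpha, was at 0.0282, 0.0998 and 0.0205 FPKM in SRAKO2365, SRAKO2371 and SRAKO2372, and at 0.0626, 0.0432 and 0.0142 FPKM in WT2368, WT2378 and WT2379. Esr2, the oestrogen receptor beta, was at 0.0564 and 0.0256 FPKM in SRAKO2365 and SRAKO2372 and at 0.0612 and 0.0719 FPKM in WT2368 and WT2379, and it was listed at 0 in SRAKO2371 and WT2378. Neither gene separated the genotypes. Esr1 lies on chromosome 10 from 4611593 to 5005614 and Esr2 on chromosome 12 from 76120419 to 76177259, and their rows hold 2 of 10 and 1 of 5 annotated transcripts. Set against the commonest low coverage value of each library, which may stand for 1 read or read pair, the Esr2 values were 4.18 and 1.99 times that value in SRAKO2365 and SRAKO2372, and 3.01 and 5.01 times in WT2368 and WT2379. Pgr, the progesterone receptor, was listed at 0 in the 3 SRAKO hearts and in WT2379, and at 0.00810 FPKM in WT2368 and 0.0131 FPKM in WT2378. The Pgr values were 0.815 times the common value in WT2368 and 1.61 times in WT2378, too little to compare genotypes.

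Of the 9 other steroid receptors listed, 4 were tested, 2 of them higher and 2 lower in SRAKO hearts, and 0 passed. They act at membranes. The progesterone-binding protein Pgrmc1 was at 8.93 ± 0.816 FPKM in SRAKO and 8.19 ± 1.20 FPKM in WT hearts, and its relative Pgrmc2 was at 9.42 ± 0.502 FPKM in SRAKO and 8.55 ± 1.07 FPKM in WT hearts. Both were well above any nuclear receptor for sex steroids. The membrane progestin receptor Paqr9 was at 2.66 ± 0.226 FPKM in SRAKO and 3.003 ± 0.405 FPKM in WT hearts. Paqr7, of the same family, swung between hearts, at 5.16, 1.14 and 2.12 FPKM in SRAKO2365, SRAKO2371 and SRAKO2372, and at 1.47, 4.74 and 4.57 FPKM in WT2368, WT2378 and WT2379. As with Nr3c1, SRAKO2371 and WT2368 were the lowest of their genotypes, and the share of all rows with that order was not counted. Of 8 target genes of sex steroids 2 were tested, Ctsd in a row shared with Ifitm10, and Xbp1, and 0 passed. Ctsd, a lysosomal protease, was at 114 ± 5.11 FPKM in SRAKO and 112 ± 21.9 FPKM in WT hearts, and Xbp1, a transcription factor of the unfolded protein response, was at 9.87 ± 4.21 FPKM in SRAKO and 8.74 ± 3.56 FPKM in WT hearts.

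Hsd11b1 makes active corticosterone from its inert keto form inside cells, and so sets the ligand available to Nr3c1. Its row holds the 7 annotated transcripts. The gene occupies bases 193221634 to 193264075 of chromosome 1 (minus strand). It was at 2.47, 3.30 and 3.11 FPKM in SRAKO2365, SRAKO2371 and SRAKO2372, and at 2.20, 2.83 and 3.33 FPKM in WT2368, WT2378 and WT2379. The genotypes overlapped over nearly their whole range. Means were 2.96 ± 0.434 FPKM in SRAKO and 2.79 ± 0.569 FPKM in WT hearts (SD, n = 3 each), which differ by 0.07 on the log2 scale (SE 0.14), with a 95% interval from -0.25 to 0.39. Without WT2368, the lowest heart, the difference was -0.047. Fat is known for high Hsd11b1, and adipocyte markers varied widely: the summed FPKM of 11 markers was 162, 485 and 270 in SRAKO2365, SRAKO2371 and SRAKO2372, and 186, 186 and 155 in WT2368, WT2378 and WT2379. Over the list, 10 of 11 adipocyte markers were tested and 10 were higher in SRAKO hearts, and their part in the Hsd11b1 values was not tested.

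The partner enzyme of Hsd11b1 showed larger swings. H6pd supplies the NADPH that Hsd11b1 needs in the endoplasmic reticulum, and it was at 8.77, 2.12 and 2.30 FPKM in SRAKO2365, SRAKO2371 and SRAKO2372, and at 7.004, 9.17 and 8.74 FPKM in WT2368, WT2378 and WT2379. A pair of SRAKO hearts was low, and SRAKO2365 stood among the WT hearts. The genotypes differed by -0.99 on the log2 scale, SE 0.40 (limma, unadjusted p = 0.0398, adjusted p = 0.999). Hsd11b2, which inactivates corticosterone in aldosterone target tissues, was listed at 0 in SRAKO2372, WT2368 and WT2379 and at no more than 0.0742 FPKM elsewhere. Of 18 steroid enzymes on the list, 14 had a row and 6 were tested, with 2 higher and 4 lower in SRAKO hearts, with a median log2 difference of -0.08, and 0 passed adjustment. Apart from H6pd, Srd5a3 was at 1.52 ± 0.168 FPKM in SRAKO and 1.34 ± 0.0841 FPKM in WT hearts, and the steroid dehydrogenase family members Hsd17b7 and Hsd17b12 differed by -0.12 and -0.30 on the log2 scale. Hsd17b12, which also serves fatty acid elongation, was at 3.001, 7.81 and 3.63 FPKM in the SRAKO hearts in the order given, and at 5.01, 5.63 and 6.62 FPKM in WT2368, WT2378 and WT2379.

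Fkbp4, or FKBP52, is an immunophilin that binds HSP90 and raises the response of steroid receptors to hormone. Its row holds the 4 annotated transcripts. The gene occupies bases 128429735 to 128438677 of chromosome 6 (minus strand). It was at 87.2, 63.2 and 76.5 FPKM in SRAKO2365, SRAKO2371 and SRAKO2372, and at 65.0, 80.8 and 81.5 FPKM in WT2368, WT2378 and WT2379. SRAKO2365 was the highest heart and SRAKO2371 the lowest, with the WT hearts between them. Means were 75.7 ± 12.0 FPKM in SRAKO and 75.8 ± 9.32 FPKM in WT hearts (SD, n = 3 each), a log2 difference of -0.01 with a 95% interval from -0.36 to 0.35. The sign of so small a difference was not fixed: it was 0.11 without SRAKO2371, 0.04 without WT2378 and 0.05 without WT2379. SRAKO2371 and WT2368, the libraries with most 7SK RNA, had the lowest Fkbp4 of their genotypes. WT2368 held the lowest value of 44.9% of all tested rows, and the share of rows with the pattern of Fkbp4 was not counted.

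Ptges3, or p23, is the co-chaperone that closes HSP90 around the receptor, and it can also act as a prostaglandin E synthase. It varied least of the 5 tested genes, from 9.56 to 11.7 FPKM. It was at 10.2, 9.56 and 10.5 FPKM in SRAKO2365, SRAKO2371 and SRAKO2372, and at 11.7, 9.62 and 10.4 FPKM in WT2368, WT2378 and WT2379. Means were 10.1 ± 0.493 FPKM in SRAKO and 10.6 ± 1.04 FPKM in WT hearts (SD, n = 3 each), a log2 difference of -0.06 with a 95% interval from -0.30 to 0.18. Without WT2368, the highest heart, the difference was 0.0079. The gene lies on chromosome 10 from 128058954 to 128077272. Its row holds the 3 annotated Ptges3 transcripts, and a processed pseudogene of the same gene could take or give reads.

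Other genes of the prostaglandin E pathway also missed the threshold. Of 5 genes 3 were tested, 2 higher and 1 lower in SRAKO hearts, and 0 passed. Ptges2, a membrane-associated synthase, was at 6.26 ± 0.798 FPKM in SRAKO and 5.91 ± 0.963 FPKM in WT hearts. The cyclooxygenase Ptgs1 was at 3.84 ± 0.788 FPKM in SRAKO and 3.05 ± 0.622 FPKM in WT hearts. Hpgd, which degrades prostaglandins, was at 1.74 ± 0.373 FPKM in SRAKO and 2.25 ± 0.244 FPKM in WT hearts, with a log2 difference of -0.26 (limma, unadjusted p = 0.0707).

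The HSP90 machinery around Fkbp4 and Ptges3 had genes on both sides of WT. Of its 15 genes, 15 were tested, 5 were higher and 10 lower in SRAKO hearts, and the median log2 difference was -0.05 against 0.01 over all rows. After adjustment 0 passed in limma, and 0 of the 15 had an unadjusted p under 0.05. Hsp90ab1, the constitutive HSP90 and the most abundant of the list, was at 256 ± 7.71 FPKM in SRAKO and 256 ± 13.4 FPKM in WT hearts. Hspa8, the constitutive HSP70 (in a row with small nucleolar RNAs of its introns), was at 173 ± 17.6 FPKM in SRAKO and 174 ± 24.2 FPKM in WT hearts.

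In the rows of 2 of the 15 genes the genotypes did not overlap, where 8.05% of all rows did not. Stip1, or HOP, which hands the receptor from HSP70 to HSP90, was at 43.8, 43.5 and 44.2 FPKM in SRAKO2365, SRAKO2371 and SRAKO2372, and at 49.9, 47.4 and 48.6 FPKM in WT2368, WT2378 and WT2379. The genotypes differed by -0.15 on the log2 scale, SE 0.09 (limma, unadjusted p = 0.146, adjusted p = 0.999). Stub1, or CHIP, a ubiquitin ligase of chaperone clients, shares its row with Rhot2, Wdr90, Rhbdl1 and 2 further symbols. That row was at 12.3 ± 0.313 FPKM in SRAKO and 10.9 ± 0.701 FPKM in WT hearts. It joins 32 transcripts and holds 1 of 7 annotated Stub1 transcripts, so its values cannot be assigned to Stub1.

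Some stress-inducible members of the machinery stood highest in a single WT heart. Hsp90aa1, the inducible HSP90, was at 10.2, 13.4 and 11.3 FPKM in SRAKO2365, SRAKO2371 and SRAKO2372, and at 23.3, 12.4 and 13.8 FPKM in WT2368, WT2378 and WT2379. Dnajb1, an HSP40 co-chaperone, was at 3.05, 3.25 and 3.81 FPKM in the SRAKO hearts in that order, and at 9.35, 3.16 and 4.03 FPKM in WT2368, WT2378 and WT2379. Both were highest in WT2368. In both genes WT2379 also lay above each SRAKO heart, by little, and WT2378 lay within the range of the SRAKO hearts. The heat shock gene Hspa1a, which earlier results on these hearts had singled out, was at 14.5 and 13.9 FPKM in WT2368 and WT2379 and at no more than 2.37 FPKM elsewhere. Fkbp4 in WT2368 was the lowest of the WT hearts, at 65.0 FPKM, and Ptges3 in WT2368 was the highest of the 6 hearts, at 11.7 FPKM.

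**Figure D4:**
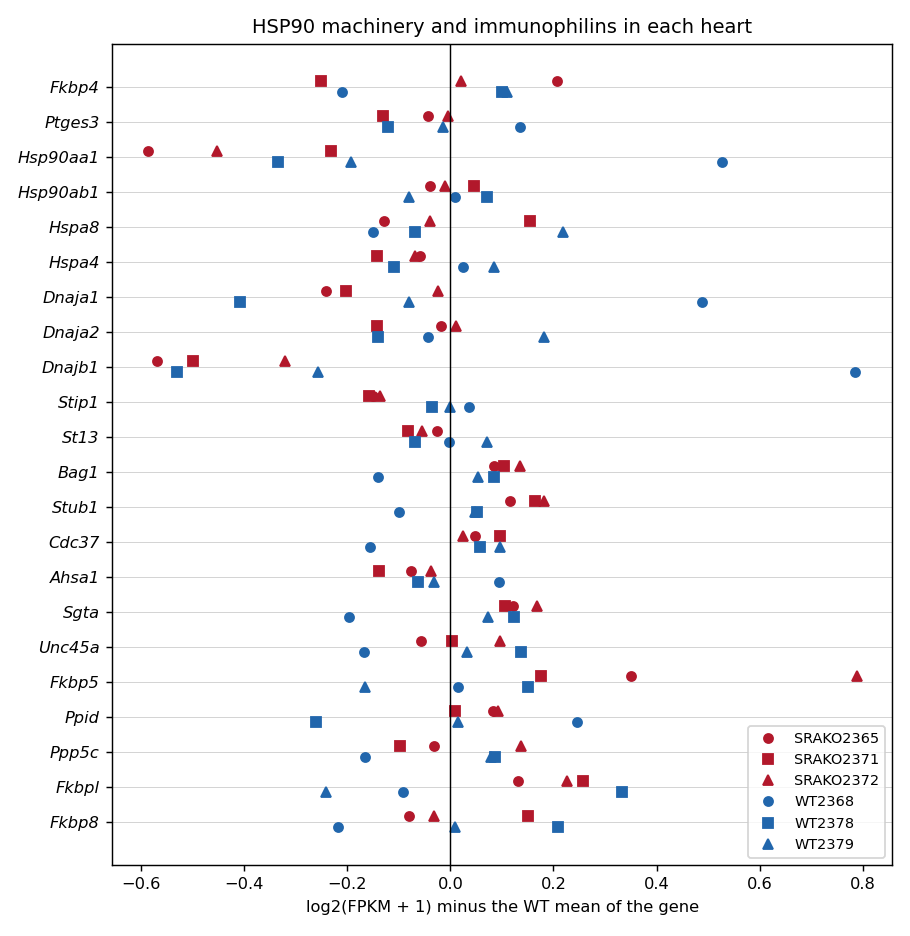
Log2(FPKM + 1) of Fkbp4, Ptges3, 15 genes of the HSP90 machinery and 5 immunophilins and related proteins in each heart, relative to the WT mean of the gene, SRAKO (red) above WT (blue) in each line. WT2368 (blue circle) is far right for Hsp90aa1, Dnaja1 and Dnajb1. The SRAKO hearts lie left of the WT hearts for Stip1, and right of them for Fkbp5 and for the joined row that carries Stub1.

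The immunophilin Fkbp5 (FKBP51) competes with Fkbp4 for HSP90 and restrains the glucocorticoid receptor. It was at 12.4, 10.9 and 17.2 FPKM in SRAKO2365, SRAKO2371 and SRAKO2372, and at 9.65, 10.7 and 8.40 FPKM in WT2368, WT2378 and WT2379. The SRAKO hearts lay above the WT hearts, SRAKO2371 by little, as earlier results on these hearts had shown. The genotypes differed by 0.44 on the log2 scale, SE 0.17 (limma, unadjusted p = 0.0333, adjusted p = 0.999). Of the 6 immunophilins and related proteins tested, 5 were higher and 1 lower in SRAKO hearts, with a median of 0.04, and 0 passed. Fkbp5 was also counted among the corticosteroid target genes. Fkbpl was at 3.30 ± 0.192 FPKM in SRAKO and 2.78 ± 0.808 FPKM in WT hearts, and the cyclophilin Ppid at 3.35 ± 0.139 FPKM in SRAKO and 3.21 ± 0.734 FPKM in WT hearts.

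The ratio of both immunophilins within each heart restates the Fkbp5 difference, since Fkbp4 differed by -0.01 on the log2 scale, and is not separate evidence. Fkbp4 exceeded Fkbp5 by 7.02, 5.80 and 4.45 times in SRAKO2365, SRAKO2371 and SRAKO2372, and by 6.74, 7.56 and 9.70 times in WT2368, WT2378 and WT2379. SRAKO2365 lay among the WT hearts and the other SRAKO hearts below them. The mean log2 ratio was 2.50 ± 0.330 in SRAKO and 2.98 ± 0.269 in WT hearts (SD, n = 3 each), a difference of -0.48 (exact two-sided permutation test, p = 0.2, where the smallest possible is 0.1). With 1 heart left out in turn the difference ran from -0.64 without SRAKO2365 to -0.31 without SRAKO2372.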

How the data were processed

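RNA of 6 whole mouse hearts (3 SRAKO, 3 WT) was sequenced from RNA selected with oligo(dT) beads, per the labels' protocols. The authors deposited a table of FPKM values per gene row. The submitters' processing notes name cutadapt 1.9, HISAT2 2.0.4, StringTie 1.3.4d and edgeR, and the build hg38, although the table carries mouse identifiers. How the reads were assigned and whether strand was used is not given in the sources used here. Assembled rows can join neighbouring genes, and FPKM depends on which transcripts a row holds. Read totals are unknown, and depth was compared through the commonest low coverage value of single-transcript rows. Coordinates are from the GENCODE M21 annotation of GRCm38.

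From the deposited FPKM, log2(FPKM + 1) was tested with limma 3.58.1 in R 4.3.3 (variance trend, two-sided, Benjamini-Hochberg over 10201 rows with at least 1 FPKM in at least 3 hearts). On simulated data the fit recovered 26.2% of 1.5-fold, 79.0% of 2-fold and 97.6% of 4-fold changes of FPKM + 1. The changed rows were drawn from levels above those of Nr3c1, Nr3c2 and Hsd11b1, so these shares do not cover those genes. Noise was drawn independently for each row and heart, and 200 rows were changed, where 2 rows passed in the deposited values. The simulation held no shift shared by a whole library, while WT2368 held the lowest value of 44.9% of all tested rows. The shares therefore need not hold for Fkbp4 and Ptges3 either. Per-heart ratios were tested by exact permutation. The 8 genes and the lists were chosen with earlier results of these data known. Beyond the 8, the genes named are fixed partners, plus up to 4 tested members of each list with the smallest p. Hspa1a and Rn7sk are named outside that rule, and 2 genes of the lists are not reported here by name. Alternatives were another pseudocount, other filters, 2 further scalings, array weights, no variance trend, and hearts left out. The labels name no sample pairs.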

Additional observations from a re-analysis of the deposited data

How the results depend on the processing

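Across 14 alternatives the 5 tested genes gave 67 values, since Nr3c1, Nr3c2 and Hsd11b1 were not kept by a filter at 5 FPKM, and 0 passed an adjusted p of 0.05, with a smallest adjusted p of 0.786, for Nr3c2. Differences near 0 changed sign in 12 of them, and the cause was not tested. Without WT2368 and SRAKO2371 the log2 difference (SRAKO minus WT) was -0.11 for Hsd11b1, 0.0095 for Fkbp4 and 0.043 for Ptges3, and the difference in the log2 ratio of Nr3c1 to Nr3c2 was 0.10. Array weights gave -0.052 for Hsd11b1, and a pseudocount of 1 gave 0.0064 for the ratio of Nr3c1 to Nr3c2. With 1 heart left out in turn, the difference ran from -0.72 to 0.51 for Nr3c1, from -0.16 to -0.05 for Nr3c2, from -0.047 to 0.17 for Hsd11b1, from -0.11 to 0.11 for Fkbp4, from -0.12 to 0.0079 for Ptges3, and from -1.36 to 1.40 for the ratio of Nr3c1 to Nr3c2. The number of rows called was 2, and became 1 with a pseudocount of 0.1 or a filter at 5 FPKM, 0 with no filter or without WT2368 and SRAKO2371, and 0 to 7 with 1 heart left out. Of 98 list medians (7 lists under 14 alternatives), 7 moved by over 1 SD. Summing rows of a symbol gave no other value, since each symbol has 1 row. No paired analysis was possible, because the labels name no pairs and the numbers in the titles differ between all 6 hearts. Read totals behind the FPKM values are unknown, and the effect of depth was not tested.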
